A study of Rattus norvegicus with 72 samples.

Results

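The genes described here are Gbp4 and 8 further interferon-induced genes, Gbp2, Isg15, Irf7, Mx1, Mx2, Ifit3, Oasl and Rsad2, in primary rat hepatocytes exposed to carcinogens and non-carcinogens. They were taken by platform gene symbol, which gave 10 probe sets for the 9 genes (Mx2 has 2) out of 31042 probe sets and 14217 named genes on the array. Gbp4 was selected on its rise after genotoxic compounds, so its levels and changes are given as a description with no test. The other genes are known as interferon-induced genes.

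Hepatocytes were freshly isolated from rat liver, cultured as a monolayer without serum after attachment, and exposed for 24 h or 72 h. The series names aflatoxin B1 (19 nM), the tobacco nitrosamine NNK (625 µM) and 2-nitrofluorene (78 µM) as genotoxic carcinogens. Wy-14643 (250 µM), piperonyl butoxide (13.4 µM) and methapyrilene (8.5 µM) were the non-genotoxic carcinogens, and nifedipine (156 µM) and clonidine (277 µM) the non-carcinogens. The protocol text names the first compound only as aflatoxin B, and the design text as aflatoxin B1. Each compound had 3 arrays at each time and was set against its own 3 control arrays at that time. Aflatoxin B1, Wy-14643 and clonidine shared 1 set of controls, 2-nitrofluorene, piperonyl butoxide and nifedipine shared another, and NNK and methapyrilene had a set each. Comparisons within such a set share control arrays and are not independent.

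Interferons are secreted proteins that bind cell-surface receptors and act through JAK kinases and transcription factors. Type I interferons act on genes with an interferon-stimulated response element, whereas interferon gamma acts on genes with a gamma-activated site; IRF transcription factors also bind the first kind of element. Isg15, Irf7, Mx1, Mx2, Ifit3, Oasl and Rsad2 are known mainly as type I interferon targets, and the guanylate-binding proteins Gbp2 and Gbp4 as strong interferon gamma targets. In liver these genes are known from viral infection and inflammation, in hepatocytes as well as in Kupffer cells, the resident macrophages.

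The promoters are shown because the members share a known response to interferon, and an element for it can be looked for in them. RefSeq promoter sequences (rat build GRCr8, 300 bases around the start of the transcript the table uses) were given for 7 of the 9 genes, not for Isg15 and Mx2. Capitals mark matches to an interferon-stimulated response element written as GAAANNGAAA on the plus strand of the gene or TTTCNNTTTC on the other. Gbp4 and Gbp2 lie next to each other on chromosome 2 with 13602 bases and no annotated gene between them (Mx1 and Mx2 lie on chromosome 11 with 80401 bases and 1 gene between them), and their promoters are printed whole, followed by 40-base windows around the match in the other 3 genes that hold one.
Gbp4, chr2:233978236-233978535, plus strand: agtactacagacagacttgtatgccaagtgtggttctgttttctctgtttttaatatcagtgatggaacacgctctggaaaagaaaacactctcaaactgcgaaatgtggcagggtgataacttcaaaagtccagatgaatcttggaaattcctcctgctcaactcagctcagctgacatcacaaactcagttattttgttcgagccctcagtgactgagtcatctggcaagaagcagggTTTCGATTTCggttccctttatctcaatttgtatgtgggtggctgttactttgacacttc
Gbp2, chr2:234005477-234005776, plus strand: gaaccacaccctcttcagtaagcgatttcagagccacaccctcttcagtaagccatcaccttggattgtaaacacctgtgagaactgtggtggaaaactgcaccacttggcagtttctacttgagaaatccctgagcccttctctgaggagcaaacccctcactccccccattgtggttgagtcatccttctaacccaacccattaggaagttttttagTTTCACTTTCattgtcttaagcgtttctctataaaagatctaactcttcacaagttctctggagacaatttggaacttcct
Irf7, chr1:205800068-205800107, minus strand: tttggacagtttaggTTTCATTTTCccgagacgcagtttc
Ifit3, chr1:241527267-241527306, plus strand: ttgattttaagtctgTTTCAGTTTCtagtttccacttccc
Rsad2, chr6:48788243-48788282, minus strand: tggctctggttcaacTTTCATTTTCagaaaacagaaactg

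Positions were counted from the start of the transcript the table uses. The match began 10 bases upstream of it in Gbp4, 31 in Gbp2, 69 in Irf7, 44 in Ifit3 and 147 in Rsad2. In Gbp4, Irf7 and Rsad2 the annotated gene begins further upstream than that start. The matches of Gbp4 and Irf7 thus lie inside the annotated gene. A match was found in 5 of the 7 promoters and in 3.92% of the 33469 rat promoters of the same length. Mx1 and Oasl had no such match. A gamma-activated site written as TTCNNNGAA, which reads the same on both strands, was in 0 of the 7 and in 8.87% of all promoters, and the p53 half-site was in 0 of the 7 and in 7.98%. With neither of these sites in the 7 promoters, no match could overlap one. A match describes letters only.

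Values are MAS5 intensities, the authors' background-corrected brightness of a probe set on a linear scale. Every array had a mean of 100 without its top and bottom 2%, and a median of 15.8 to 23.8. Hepatocyte markers were bright on all arrays, with the lowest albumin value at 3055. Of 16 macrophage markers 14 passed the filter on low values described with the tests, and of 13 T, NK and B lymphocyte markers 2 did, Klrb1a and Gzmk. Arrays are numbered by the replicate number in their titles, which also carry a D number whose meaning is not stated. NNK and its controls carry D numbers 7, 8 and 9, as do 2-nitrofluorene, piperonyl butoxide, nifedipine and their controls. There are 9 D numbers, each of which recurs at 24 h and 72 h. The 8 arrays of D number 3, which are replicate 3 of aflatoxin B1, Wy-14643, clonidine and their controls, stood apart in 2 ways. Their log2 ratio of 3′ to 5′ beta-actin signal was over 1.5, as on 2 more arrays (aflatoxin B1 replicate 1 at 24 h and replicate 2 at 72 h), with 1.84 to 2.71 on these 10 arrays and 0.36 to 1.11 on all others. Also, a score of culture time, from 2601 probe sets that rose and 2039 that fell in the other controls, was −1.87 to −1.73 on the D number 3 arrays labelled 72 h and −1.21 to −0.98 on those labelled 24 h, against −1.30 to −0.04 (72 h) and −1.99 to −1.36 (24 h) on the arrays of the other D numbers. The score of these arrays thus ran against their time labels. Called changes of members and of named pathway genes that rest on them are also given without them.

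Gbp4 and Gbp2 code for guanylate-binding proteins, large GTPases that act against intracellular pathogens. Gbp4 (Entrez 310917, chromosome 2, 233978163 to 233992124) had intensities of 163, 101 and 104 after 24 h of aflatoxin B1, against 7.58, 10.2 and 11.5 in its controls. After 72 h it had 101, 558 and 86.6, against 9.17, 5.23 and 4.93. All aflatoxin arrays lay above all their controls at both times, and replicate 2 at 72 h, 1 of the 2 further arrays with a high actin ratio, was the highest of all 72 arrays. After NNK it had 23.5, 26.8 and 39.6 at 24 h, against 5.35, 9.59 and 6.0 in the NNK controls, and 144, 161 and 81.0 at 72 h, against 9.38, 22.3 and 8.76. NNK arrays also lay above all their controls at both times.

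The log2 change of Gbp4, taken after raising values to a floor of 3.12, was 3.63 ± 0.44 (SE) for aflatoxin B1 at 24 h and 4.78 ± 0.44 at 72 h. For NNK it was 2.11 ± 0.44 at 24 h and 3.33 ± 0.44 at 72 h. The controls lay below the filter on low values, and on log2(value + 16) in place of the floor the changes were 2.40 and 3.09 for aflatoxin B1 and 0.99 and 2.28 for NNK. Without D number 3 the aflatoxin changes were 3.86 at 24 h and 5.10 at 72 h, and 3.52 and 3.87 when the arrays with a high actin ratio were left out. Without replicate 2 the change at 72 h was 3.92. In bulk cultures, more RNA per cell and more cells of a type that holds it cannot be told apart, here or below. Across the study, the 12 arrays of these compounds lay above the other 60 within each time, with 23.5 as their lowest and 11.9 as the highest other value at 24 h, and 81.0 and 22.3 at 72 h. Gbp4 passed the filter through 4 of 24 groups, those of aflatoxin B1 and NNK, which are the groups it was selected on.

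2-Nitrofluorene, also named as genotoxic, left Gbp4 low. It had 6.40, 6.90 and 7.98 at 24 h, against 10.1, 11.9 and 5.80 in the controls, and 6.86, 13.4 and 6.80 at 72 h, against 18.0, 19.4 and 14.3. The groups overlapped at 24 h (log2 change −0.33 ± 0.44), and at 72 h all 3 treated arrays were below the controls (−0.999 ± 0.44). Nifedipine at 72 h gave 2.02, 5.29 and 4.79 against the same controls, a log2 change of −2.0 ± 0.44, with 1 array under the floor, and at 24 h the change was −0.74 ± 0.44. For the other 4 compounds the changes lay between −1.15 ± 0.44 (Wy-14643, 24 h) and 0.17 ± 0.44 (methapyrilene, 72 h).

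The other members were tested with limma over the 18048 probe sets that passed a filter on low values, with adjusted p (Benjamini-Hochberg) under 0.05 as the threshold; 8 of their 9 probe sets, of 7 genes, passed the filter. Mx1 did not. The share of all probe sets called at 24 h was 3.33% for aflatoxin B1, 0.92% for NNK and 1.13% for 2-nitrofluorene. It was 0.0443% for Wy-14643, 0.0887% for piperonyl butoxide, 0% for methapyrilene, 0.46% for nifedipine and 0.0166% for clonidine. At 72 h the shares were 4.91% for aflatoxin B1, 3.32% for NNK, 0.809% for 2-nitrofluorene, 7.31% for Wy-14643, 0% for piperonyl butoxide, 0% for methapyrilene, 3.18% for nifedipine and 0.0332% for clonidine.

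Against these shares, 1 of the 8 member probe sets rose after aflatoxin B1 at 24 h and 2 rose at 72 h, 0 were called after NNK at 24 h (1 at an unadjusted p under 0.05) and 2 rose at 72 h. After 72 h of Wy-14643, 1 fell. In the other 11 comparisons limma called 0 of 8, with 0 to 2 of 8 at an unadjusted p under 0.05. The genes that rose were Gbp2 and Irf7, and the one that fell was Mx2.

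**Figure D1:**
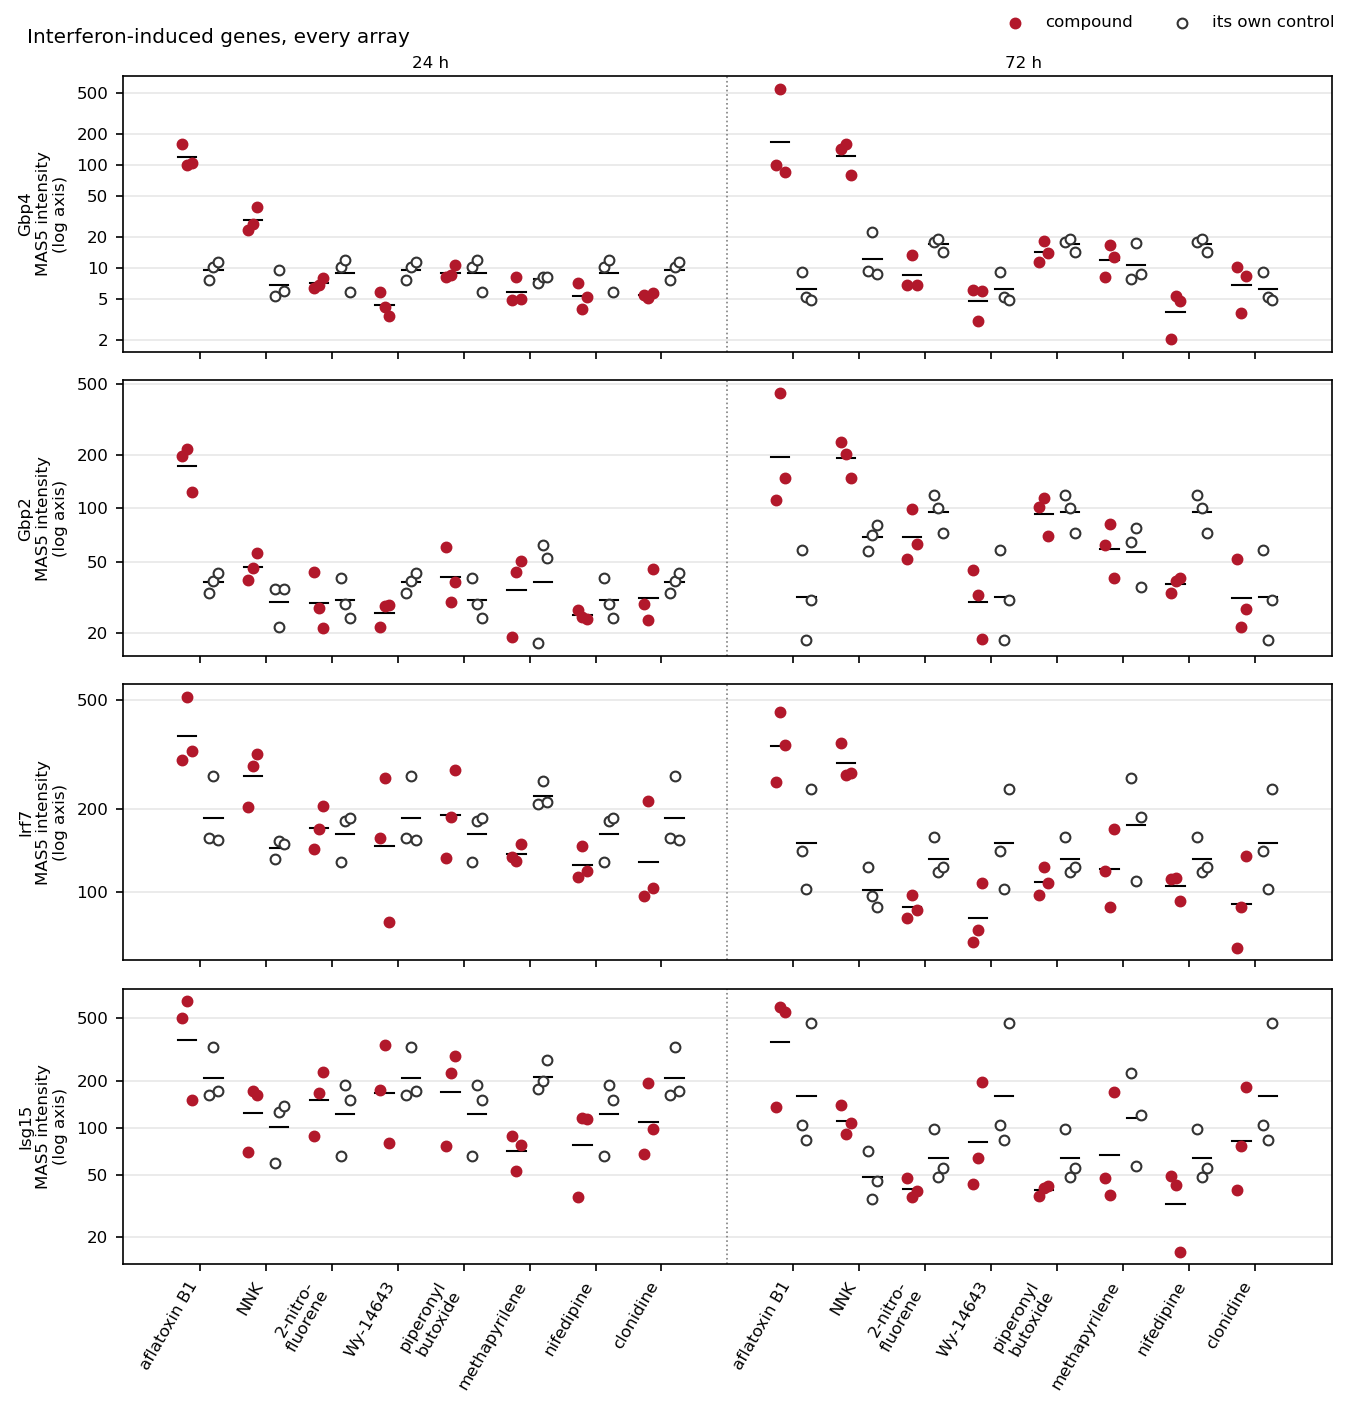
MAS5 intensity (log axis) of Gbp4, Gbp2, Irf7 and Isg15 on every array, at 24 h and 72 h, with each compound (filled points) beside its own control (open points) and the mean of log2 values as a bar. Gbp4 after aflatoxin B1 and NNK sits at 23.5 or higher on all 12 arrays, while 2-nitrofluorene stays at 13.4 or lower.

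Gbp2 (Entrez 171164, chromosome 2, 234005727 to 234021812) had 197, 213 and 123 after 24 h of aflatoxin B1, against 33.6, 39.1 and 43.1 in its controls. All 3 treated arrays lay above the controls and Gbp2 rose, with a log2 change of 2.17 ± 0.43 (SE, n = 3 each) and a limma adjusted p of 0.000731, or 2.50 without D number 3 (0.00316). At 72 h it had 111, 444 and 148, against 58.1, 18.1 and 30.6. Here too the groups did not overlap, and replicate 2 was the highest, as for Gbp4. The log2 change was 2.61 ± 0.43 with a limma adjusted p of 2.64e-05, and without D number 3 it was 2.77 (0.00028). When the arrays with a high actin ratio were left out, which leaves 1 aflatoxin array at 72 h, it was 1.77 with an adjusted p of 0.133.

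After NNK, Gbp2 had 39.7, 46.4 and 56.1 at 24 h, against 35.2, 21.5 and 35.0 in its controls. The groups did not overlap, but the log2 change of 0.65 ± 0.43 did not pass the test (limma adjusted p = 0.742). At 72 h it had 236, 202 and 147, against 57.6, 70.7 and 80.4, and rose by a log2 change of 1.47 ± 0.43 (limma adjusted p = 0.0405). That call was lost without a filter on low values (adjusted p = 0.0637) and when any single array but NNK replicate 3 was left out (0.0889 to 0.188). With arrays of equal D number paired as a block, its limma adjusted p was 0.00441.

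Gbp2 after nifedipine at 72 h had 33.6, 39.2 and 40.4, against 119, 100 and 72.3 in the controls. All treated arrays were below the controls, and the log2 change of −1.34 ± 0.43 had a limma adjusted p of 0.0700. With the D number as a block, which pairs arrays of equal number, the adjusted p was 0.00814, and without D number 3 it was 0.0473. After 2-nitrofluorene the log2 changes were −0.05 ± 0.43 at 24 h and −0.47 ± 0.43 at 72 h, neither past the test.

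Irf7 (Entrez 293624, chromosome 1, 205796956 to 205800543) codes for a transcription factor that drives transcription of type I interferon genes. It had 303, 513 and 325 after 24 h of aflatoxin B1, against 157, 265 and 155 in its controls. No treated array overlapped the controls, and the log2 change of 0.99 ± 0.33 had a limma adjusted p of 0.0866, or 0.95 without D number 3 (0.108). At 72 h it had 252, 453 and 342, against 141, 102 and 237, and rose by a log2 change of 1.17 ± 0.33 (limma adjusted p = 0.0219), or 1.49 without D number 3 (adjusted p = 0.00261). The call at 72 h was lost without aflatoxin replicate 2 (0.96, adjusted p = 0.294), without control replicate 1 (1.12, 0.0802) or 2 (0.89, 0.255), and with the arrays of high actin ratio left out (1.07, 0.193).

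After NNK, Irf7 had 204, 288 and 316 at 24 h, against 131, 154 and 149 in the NNK controls. The groups did not overlap, and the log2 change of 0.87 ± 0.33 had a limma adjusted p of 0.278, or 0.00848 with the D number as a block. At 72 h it had 349, 267 and 272, against 123, 96.8 and 88.3. Irf7 rose there by a log2 change of 1.53 ± 0.33 (limma adjusted p = 0.00276), and by 1.47 to 1.62 in each of the 3 pairs of equal number. Wy-14643 at 72 h gave 65.6, 72.7 and 107, against 141, 102 and 237, with 1 treated array above the lowest control, and the log2 change of −0.91 ± 0.33 had a limma adjusted p of 0.0769 and, with the D number as a block, of 0.00118. It was −0.80 (0.145) without D number 3.

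Isg15 (Entrez 298693, chromosome 5, 172066369 to 172067656) codes for a ubiquitin-like protein that is joined to other proteins. After aflatoxin B1 it had 502, 644 and 150 at 24 h, against 162, 327 and 173 in its controls, and 135, 588 and 548 at 72 h, against 104, 83.9 and 464. The groups overlapped at both times, and the log2 changes of 0.80 ± 0.66 and 1.14 ± 0.66 did not pass the test (limma adjusted p = 0.686 and 0.403). The control array at 464 and the aflatoxin arrays at 150 and 548 are those of D number 3, without which the changes were 1.31 at 24 h and 1.59 at 72 h (0.323 and 0.124). NNK at 72 h gave 139, 90.8 and 107, against 71.1, 35.2 and 45.5. All NNK arrays lay above the controls there, and the log2 change of 1.19 ± 0.66 had a limma adjusted p of 0.395, or 0.0259 with the D number as a block.

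Isg15 was low after methapyrilene at 24 h, with 88.1, 53.3 and 77.8, against 178, 199 and 270 in the controls. The groups did not overlap, and the log2 change was −1.57 ± 0.66 with an unadjusted p of 0.0220 and a limma adjusted p of 1. In that comparison all 8 member probe sets were lower, and 0 of 18048 probe sets were called. The median log2 change was −0.68, beside 0.009 over all probe sets. All 8 were lower too after nifedipine at 24 h (median −0.40, beside −0.016). The same held for clonidine at 24 h (−0.38, beside −0.021) and 72 h (−0.71, beside 0.009).

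Of the antiviral effectors, Mx1 and Mx2 code for dynamin-like GTPases, Ifit3 for a member of a complex that binds viral RNA, Oasl for a relative of the oligoadenylate synthetases, and Rsad2 for viperin, an enzyme that makes an antiviral nucleotide. Mx1 was not tested. The probe sets of the others were not called after aflatoxin B1 or NNK at either time, with limma adjusted p of 0.459 to 0.998 and unadjusted p of 0.121 to 0.983.

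Mx2 (Entrez 286918, chromosome 11, 50375101 to 50399373) was read by both of its probe sets, 1387283_at and 1369202_at. The first had 108, 231 and 46.4 after 24 h of aflatoxin B1, against 145, 286 and 105 in the controls, and 24.7, 30.0 and 25.4 after 72 h of NNK, against 68.5, 54.2 and 43.0. Aflatoxin arrays overlapped their controls, while all 3 NNK arrays at 72 h were below theirs. The log2 changes were −0.63 ± 0.65 and −1.03 ± 0.65, and in a fit on NNK and its controls alone the second had a limma adjusted p of 0.0464. This probe set was lower in all 16 comparisons, which share control arrays, between −0.22 (piperonyl butoxide, 72 h) and −2.27 (Wy-14643, 72 h).

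In Wy-14643 cultures at 72 h this Mx2 probe set had 15.1, 35.6 and 45.1, against 103, 90.0 and 291 in the controls. No array overlapped, and it fell by 2.27 ± 0.65 on the log2 scale (limma adjusted p = 0.0221), and its log2 change without D number 3 was −2.06 (0.0489). The call was lost without Wy-14643 replicate 1 (−1.80, adjusted p = 0.0837) or 2 (−2.42, 0.0665) and without control replicate 3 (−1.74, 0.119). With the D number as a block, this probe set had a limma adjusted p of 9.23e-05. After nifedipine it had 18.9, 46.5 and 43.9 at 24 h, against 92.1, 144 and 153, all below the controls. Its log2 change of −1.90 ± 0.65 had a limma adjusted p of 0.226, or 0.00401 with the D number as a block. At 72 h the change was −1.50 ± 0.65 with an adjusted p of 0.211, or 0.0110 with the block.

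The other Mx2 probe set, 1369202_at, varied with the D number. It had 34.8 to 150 (median 93.4) on the 8 arrays of D number 1, 32.8 to 144 (median 77.5) on the 4 arrays of D number 4 and 54.8 to 167 (median 87.8) on the 4 of D number 6. On the 12 arrays of D number 8 it had 12.1 to 87.3 and on the 12 of D number 9 it had 41.8 to 247. By contrast it stayed between 1.19 and 5.41 on the 8 arrays of D number 2, between 1.72 and 6.21 on the 8 of D number 3, between 1.48 and 4.46 on the 4 of D number 5 and between 0.40 and 9.40 on the 12 of D number 7. No array of these 4 D numbers reached the lowest value of the other 5, at either time and with or without a compound. The SE of its log2 change was 1.84 in each comparison, and its values were at the floor on 8 arrays. The 1387283_at probe set did not split the D numbers in this way, with 12.2 to 153 on D number 9 and 18.9 to 141 on D number 7.

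**Figure D2:**
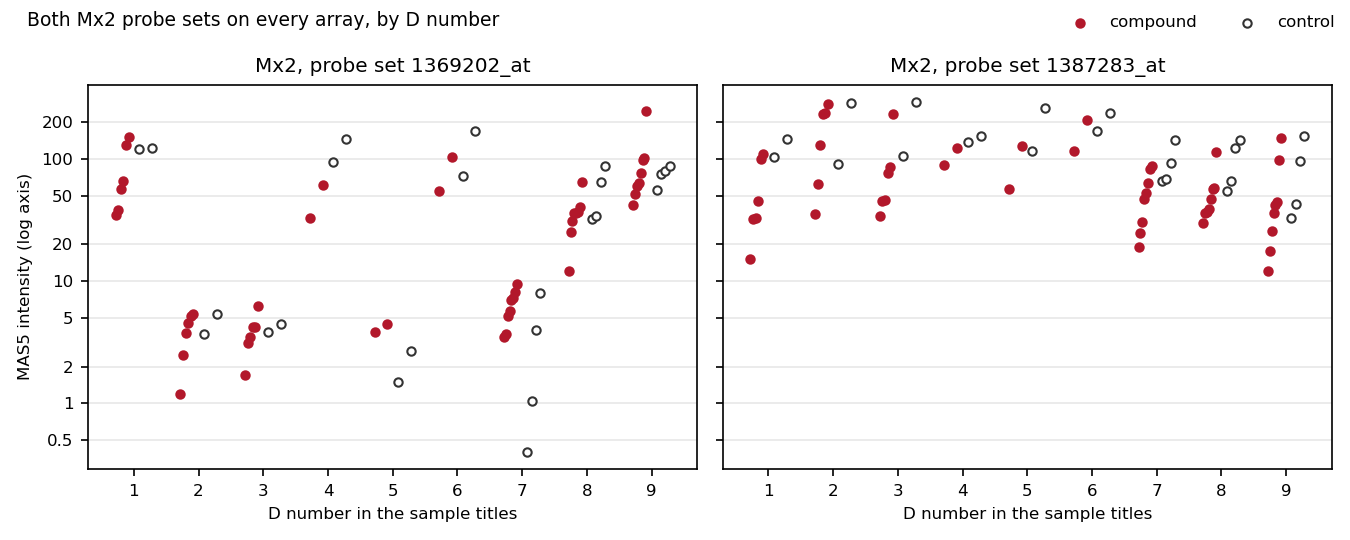
MAS5 intensity (log axis) of both Mx2 probe sets on all 72 arrays, by the D number in the sample titles, with compound arrays filled and control arrays open. Probe set 1369202_at stays at 9.40 or lower on every array of D numbers 2, 3, 5 and 7 and at 12.1 or higher on the others, while 1387283_at shows no such split.

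Rsad2 (Entrez 65190, chromosome 6, 48774985 to 48788245) had 77.2, 120 and 29.5 after 24 h of aflatoxin B1, against 53.7, 94.7 and 30.8 in the controls, and 35.0, 237 and 135 at 72 h, against 33.3, 22.2 and 103. The groups overlapped, and the log2 change was 0.27 ± 0.82 at 24 h and 1.29 ± 0.82 at 72 h (limma adjusted p = 0.947 and 0.459), or 0.43 and 1.74 without D number 3 (0.879 and 0.216). Its replicate 2 at 72 h was again far above its control, by 3.41 on the log2 scale, beside 0.07 and 0.39 in the other pairs. After NNK the log2 changes were 0.44 ± 0.82 at 24 h and 0.27 ± 0.82 at 72 h. Wy-14643 at 72 h gave 12.6, 170 and 164, against 33.3, 22.2 and 103, with arrays on both sides of the controls.

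Oasl (Entrez 304545, chromosome 12, 47343551 to 47356509) was flat after aflatoxin B1 at 24 h, with 49.4, 51.2 and 26.3, against 42.8, 54.1 and 28.2 in the controls, a log2 change of 0.01 ± 0.41. At 72 h its log2 changes were −0.39 ± 0.41 for both aflatoxin B1 and NNK. The aflatoxin changes were 0.06 and −0.37 without D number 3. Ifit3 (Entrez 309526, chromosome 1, 241527326 to 241532469) was dim, with a median of 12.4 over all arrays and 2 of 24 groups at or over the filter. Its log2 changes after aflatoxin B1 and NNK lay between −0.44 ± 0.67 and 0.15 ± 0.67, with −0.48 and −0.24 after aflatoxin B1 without D number 3. Mx1 (Entrez 24575, chromosome 11, 50269056 to 50294699) lay between 3.72 and 15.5 on all arrays, with no group mean at the filter, and was not tested. Replicate 3 of piperonyl butoxide at 24 h was its highest array, and also that of Ifit3 (58.6), Oasl (127) and Rsad2 (241), against controls of 13.3 to 23.1 for Ifit3, 26.5 to 60.7 for Oasl and 27.2 to 85.5 for Rsad2. The other 2 piperonyl butoxide arrays stayed at or below 22.1, 54.9 and 91.1 for these genes.

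**Figure D3:**
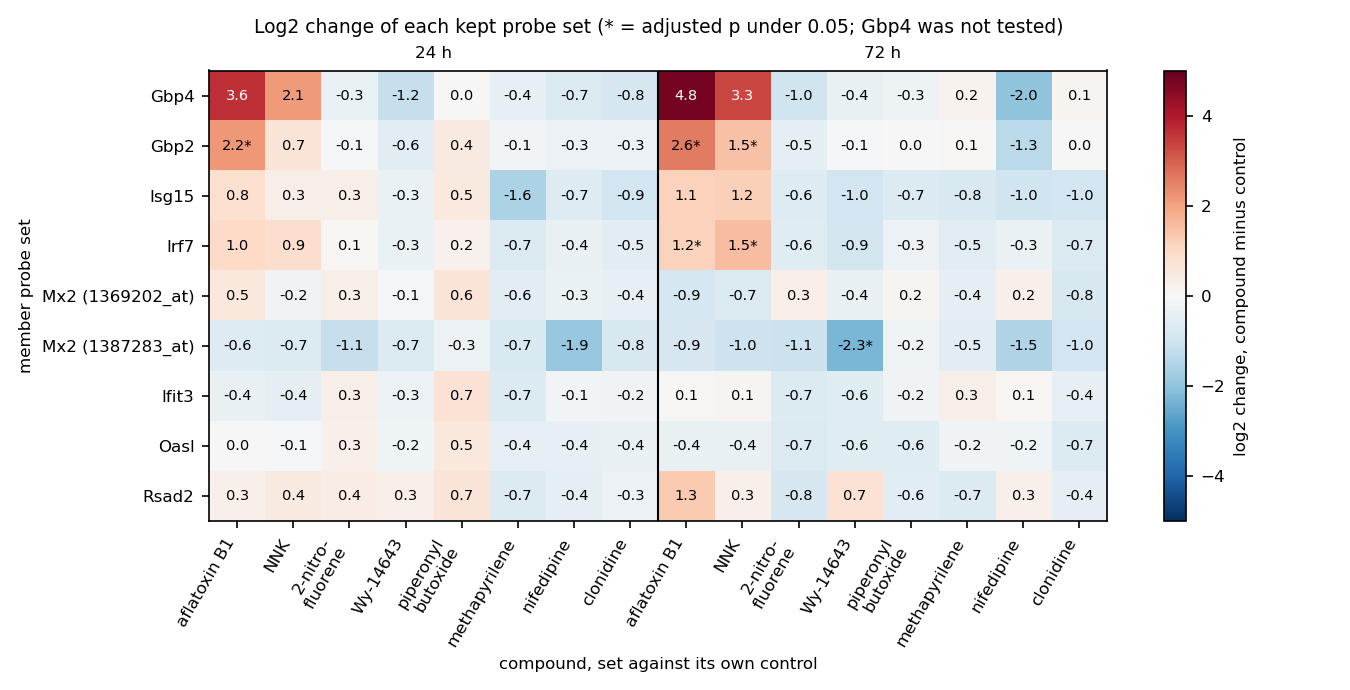
Log2 change of the 9 member probe sets kept by the filter, compound minus its own control, for 8 compounds at 24 h (left) and 72 h (right), with an asterisk where the limma adjusted p was under 0.05. Asterisks stand at Gbp2 and Irf7 for aflatoxin B1 or NNK and at Mx2 1387283_at for Wy-14643, and Gbp4 carries none because it was not tested.

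The difference between aflatoxin B1 and NNK and the other 6 compounds was tested directly, as the mean effect of the pair minus the mean effect of the rest, each effect taken against its own controls. The pair was set apart because Gbp4 was high there, so the split is not independent of genes that move with Gbp4. At 24 h 2.99% of all probe sets were called in this contrast and at 72 h 6.45%. Of the 8 member probe sets 2 were higher in the pair at 24 h, Gbp2 and Irf7, and 3 at 72 h, Gbp2, Irf7 and Isg15; none was lower.

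Gbp2 had a mean effect of 1.41 ± 0.30 after the pair and −0.15 ± 0.23 after the other 6 at 24 h, a difference of 1.56 ± 0.34 (limma adjusted p = 0.00226). At 72 h the mean effects were 2.04 ± 0.30 and −0.32 ± 0.23, a difference of 2.36 ± 0.34 (adjusted p = 1.12e-06). Irf7 had 0.93 ± 0.23 and −0.28 ± 0.17 at 24 h, and 1.35 ± 0.23 and −0.56 ± 0.17 at 72 h. Its differences were 1.21 ± 0.26 (limma adjusted p = 0.00189) and 1.91 ± 0.26 (2.77e-07). Without D number 3 the differences at 24 h and 72 h were 1.76 and 2.37 for Gbp2 and 1.13 and 2.05 for Irf7, with adjusted p of 0.00145 at most.

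Isg15 differed at 72 h by 2.00 ± 0.52 (limma adjusted p = 0.00945), or 2.17 without D number 3 (0.000997). Of this, the mean effect after the pair was 1.17 ± 0.47 and that after the other 6 was −0.84 ± 0.35, so that the lower values after the other compounds made up part of the difference. At 24 h its difference was 1.00 ± 0.52 (adjusted p = 0.428, or 0.0198 with the D number as a block). Mx2, Ifit3, Oasl and Rsad2 were not called at either time, with adjusted p of 0.409 to 0.978. Gbp4, given without a test, had mean effects of 2.87 ± 0.31 and −0.58 ± 0.23 at 24 h and of 4.06 ± 0.31 and −0.55 ± 0.23 at 72 h.

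**Figure D4:**
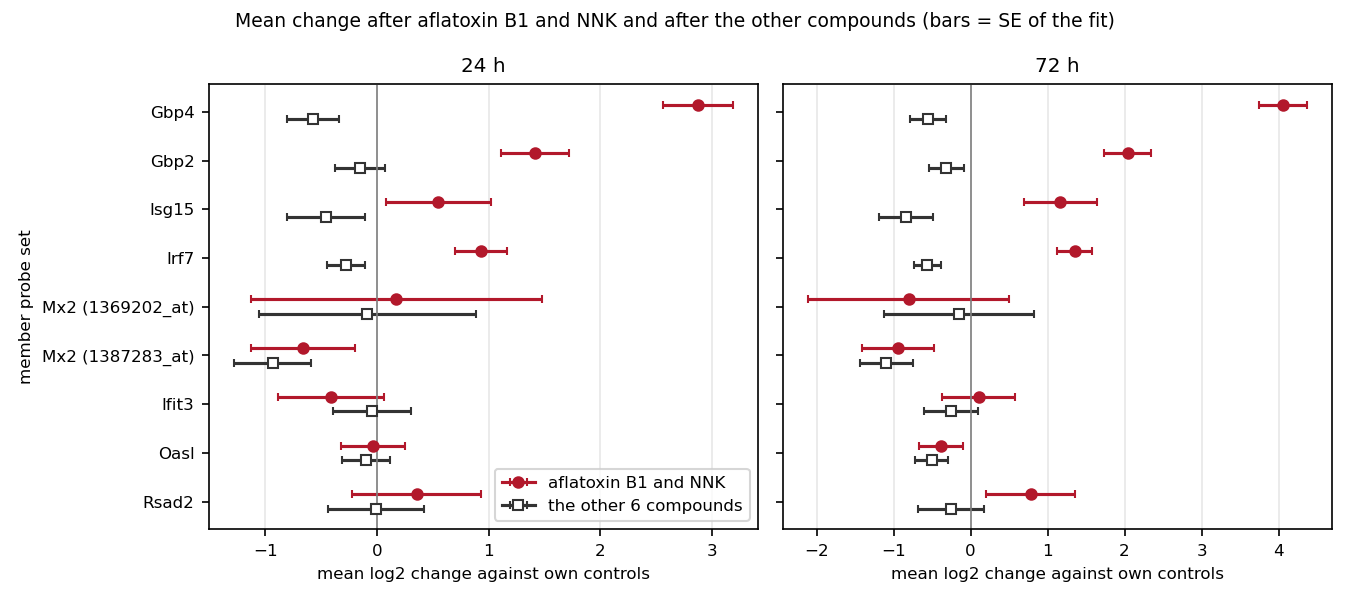
Mean log2 change against own controls of each kept member probe set after aflatoxin B1 and NNK (filled circles) and after the other 6 compounds (open squares), at 24 h and 72 h, with bars for the SE of the fit. Gbp4, Gbp2, Isg15 and Irf7 lie apart between the 2 sets at 72 h, whereas the bars of Mx2, Ifit3 and Oasl overlap.

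Effects at 72 h and at 24 h were compared in the same fit. The share of all probe sets whose effect differed between the times was 0% for aflatoxin B1, 0.0277% for NNK, 0.00554% for 2-nitrofluorene, 0% for Wy-14643, 0% for piperonyl butoxide, 0% for methapyrilene, 0.116% for nifedipine and 0% for clonidine. Limma called 0 of the 8 member probe sets for each compound, and at an unadjusted p under 0.05 there was 1, Oasl for piperonyl butoxide, which had a difference of −1.16 ± 0.57. For NNK the effect at 72 h minus that at 24 h was 0.82 ± 0.61 for Gbp2 and 0.66 ± 0.46 for Irf7. Gbp2 passed the test at 72 h of NNK and not at 24 h, but the difference between the times did not pass it (adjusted p = 0.999).

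Without a compound, the members were not steady over culture time. Over the 12 control arrays at each time, Gbp2 had 18.1 to 119 (median 67.6) at 72 h and 17.4 to 61.8 (median 35.1) at 24 h. It rose by a log2 change of 0.78 ± 0.21 (limma adjusted p = 0.00853), the only call among the 8 probe sets, with 15.9% of all probe sets called and 3 of 8 at an unadjusted p under 0.05. Isg15 had 35.2 to 464 (median 77.5) at 72 h and 59.3 to 327 (median 167) at 24 h, with a log2 change of −0.82 ± 0.33 (limma adjusted p = 0.0846, or 0.0480 with the D number as a block). Gbp4, again given without a test, had 4.93 to 22.3 (median 9.27) at 72 h and 5.35 to 11.9 (median 8.11) at 24 h, a log2 change of 0.40 ± 0.22.

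Without D number 3, whose scores ran against the labels, 25.7% of all probe sets and 5 of the 8 member probe sets were called over time in the controls. Gbp2 rose by a log2 change of 0.81 (limma adjusted p = 0.00700), while Isg15 fell by 1.04 (0.00832), Ifit3 by 0.87 (0.0223), Mx2 1387283_at by 0.81 (0.0386) and Irf7 by 0.48 (0.0135). Gbp2 thus ran opposite to the 4 others over culture time.

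How the members moved together is given as a description with no test. Over the 24 group means, log2 values of Gbp4 had a Pearson correlation of 0.91 with Gbp2, 0.76 with Irf7 and 0.44 with Isg15, and between −0.18 and 0.19 with the other probe sets. Deviations of single arrays from their group means gave another picture, over 72 arrays that share compounds, controls and D numbers. Isg15 correlated with Irf7 (0.85), Rsad2 (0.81), Oasl (0.81), Mx2 1387283_at (0.74) and Ifit3 (0.62). Gbp4 correlated with Gbp2 (0.48) and with none of the rest above 0.06. Irf7 thus went with both Gbp4 (0.76) and Isg15 (0.80) over group means, and with Isg15 but not Gbp4 (0.05) in the scatter between replicate arrays.

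The genes most like Gbp4 over the 24 group means, among 14063 kept probe sets with 1 symbol and without the members, were Rnf169 (r = 0.96), Plaat5 (0.95), Notch1 (0.95), Cpne2 (0.95) and Lig4 (0.95). Their log2 changes after aflatoxin B1 at 72 h were 1.77 ± 0.27 for Rnf169, 3.10 ± 0.43 for Plaat5, 1.15 ± 0.27 for Notch1, 3.09 ± 0.42 for Cpne2 and 2.33 ± 0.22 for Lig4. After 72 h of 2-nitrofluorene the same genes lay between −0.46 ± 0.42 (Cpne2) and 0.62 ± 0.43 (Plaat5). The 5 most like Isg15 were Usp18 (0.88), Steap3 (0.88), Oas1a (0.87), Erf (0.86) and Naxd (0.85). Usp18, which removes Isg15 from proteins, had log2 changes of −0.28 ± 0.51 after aflatoxin B1 and −0.05 ± 0.51 after NNK at 72 h. These correlations are between group means that share controls and D numbers, and the genes were ranked on the same values.

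In the rest of the interferon pathway, 103 genes of 8 lists were measured. After aflatoxin B1 limma called 5 of them at 24 h (4 rose), which is 4.85% of the pathway beside 3.33% of all probe sets, and 11 at 72 h (10 rose), 10.7% beside 4.91%. NNK had 1 at 24 h, 0.971% beside 0.92%, and 5 at 72 h (all rose), 4.85% beside 3.32%. For Wy-14643 at 72 h there were 10, of which 7 fell, 9.71% beside 7.31%. In the other 11 comparisons limma called 0. Without D number 3 the shares at 72 h were 23.3% beside 12.8% for aflatoxin B1 and 16.5% beside 9.15% for Wy-14643. These counts depended on single arrays. Leaving out aflatoxin replicate 2 or control replicate 2 at 72 h left 3 calls each (1.53% and 2.32% of all probe sets). Leaving out Wy-14643 replicate 2 left 2 (2.33% of all probe sets). The calls that held with each array of their comparison left out in turn were 2 of 5 and 3 of 11 for aflatoxin B1 at 24 h and 72 h, 0 of 1 and 2 of 5 for NNK, and 0 of 10 for Wy-14643 at 72 h. The genes with the largest changes after 72 h of Wy-14643 were Tor3a (2.28 ± 0.63) and Casp4 (1.49 ± 0.36), which rose, and RT1-S3 (−1.62 ± 0.37) and Parp14 (−0.89 ± 0.21), which fell; without D number 3 they had 2.36, 1.55, −1.98 and −0.999, with adjusted p of 0.0126 at most.

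Of the 5 ligands on the array, the interferons Ifnb1, Ifng and Ifnk did not pass the filter, so no interferon was tested. The cytokines Il15 and Il18 passed it and were not called after a compound. All 6 receptor genes were measured and none was called, with a median log2 change of 0.02 after aflatoxin B1 at 24 h, 0.07 at 72 h, 0.14 after NNK at 24 h and 0.09 at 72 h. Of 11 signal transducers, Jak1, a receptor-bound kinase, rose after aflatoxin B1. Its log2 change was 0.48 ± 0.13 at 24 h and 0.49 ± 0.13 at 72 h (limma adjusted p = 0.0236 and 0.0168). Without D number 3 its adjusted p was 0.252 at 24 h and 0.00470 at 72 h. The Jak1 call was lost when any of 3 single arrays was left out at 24 h (limma adjusted p up to 0.277). At 72 h it was lost with any of 4 left out (up to 0.0931). Irf1, a transcription factor induced by interferon gamma, rose at 72 h by 1.04 ± 0.28 (0.0175, or 0.0298 without D number 3 and 0.265 without aflatoxin replicate 2), with intensities of 200, 292 and 195, against 157, 95.0 and 88.5 in the controls. Of 6 nucleic acid sensors none was called after aflatoxin B1 or NNK. Of 8 inhibitors, Pias3, an inhibitor of STAT3, rose after aflatoxin B1. Its log2 changes were 1.40 ± 0.24 at 24 h and 2.05 ± 0.24 at 72 h (limma adjusted p = 7.42e-05 and 1.87e-08). After 24 h of NNK it was called with 0.91 ± 0.24 (0.0425), on intensities of 78.4, 221 and 193. The controls had 72.3, 91.6 and 75.9, so NNK replicate 1 lay among them. That call was lost when any of 5 single arrays was left out (limma adjusted p up to 0.635). Its aflatoxin changes were 1.44 and 2.25 without D number 3.

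Among the called pathway genes, the largest changes after aflatoxin B1 and after 72 h of NNK were in the chemokines Cxcl10 and Cxcl11, which attract T cells through Cxcr3 and are best known as interferon gamma targets. Cxcl10 had 194, 145 and 44.9 after 24 h of aflatoxin B1, against 32.6, 29.7 and 9.28 in its controls, and 67.6, 460 and 60.6 at 72 h, against 15.9, 9.57 and 11.4. It rose by log2 changes of 2.38 ± 0.54 and 3.36 ± 0.54 (limma adjusted p = 0.00455 and 1.76e-05), or 2.43 and 3.84 without D number 3. The call at 24 h was lost without control replicate 3 (1.80, 0.0830) or aflatoxin replicate 1 (1.96, 0.0507), and at 72 h the change without aflatoxin replicate 2 was 2.42 (0.00542). In NNK cultures at 72 h it had 56.5, 67.0 and 89.8, against 9.27, 11.2 and 11, a rise of 2.74 ± 0.54 (0.00115). All these treated arrays lay above their own controls, and replicate 2 of aflatoxin B1 at 72 h was again the highest.

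Cxcl11 rose by 1.98 ± 0.35 and 2.07 ± 0.35 after aflatoxin B1 at 24 h and 72 h (limma adjusted p = 0.000126 and 4.08e-05) and by 1.46 ± 0.35 after 72 h of NNK (0.00909). Without D number 3 the aflatoxin changes were 1.90 and 2.48, and without aflatoxin replicate 2 that at 72 h was 1.47 (0.0105). Cxcl9, another chemokine of this kind, was not called after either compound. Gbp7, a further guanylate-binding protein, had 31.7, 129 and 54.0 after 72 h of aflatoxin B1, against 16.5, 15 and 20.4, and rose by 1.82 ± 0.55 (0.0372, or 0.0469 without D number 3 and 0.549 without aflatoxin replicate 2). In the list of 11 interferon gamma induced GTPases and chemokines 2 rose after aflatoxin B1 at 24 h, 3 at 72 h and 2 after NNK at 72 h, with median log2 changes of 0.28, 0.39 and 0.18, beside medians over all probe sets of −0.04, 0.01 and −0.02.

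Of 37 other type I interferon-stimulated genes, Ifit2, a relative of Ifit3, fell after aflatoxin B1, by 1.16 ± 0.34 on the log2 scale at 24 h and by 1.10 ± 0.34 at 72 h (limma adjusted p = 0.0440 and 0.0470); without D number 3 its adjusted p was 0.560 at 24 h and 0.0310 at 72 h. Its intensities at 72 h were 199, 165 and 282, against 451, 376 and 532 in the controls, with no overlap. After the other compounds Ifit2 was not called. It was also below all controls after 72 h of NNK, with 230, 213 and 312 against 408, 431 and 516. The same held at 72 h for Wy-14643 (281, 195 and 223) and for 2-nitrofluorene (261, 371 and 288, against 373, 518 and 421). For the remaining compounds the groups overlapped at 72 h. The Ifit2 call was lost when any of 3 single arrays was left out at 24 h, and any of 5 at 72 h. Without aflatoxin replicate 2 its change at 72 h was −0.92 (limma adjusted p = 0.406). Isg20, Cmpk2 and Ifitm3 rose after 72 h, by 1.43 ± 0.34, 1.38 ± 0.39 and 1.11 ± 0.30. They had 1.89, 1.94 and 1.40 without D number 3, and without aflatoxin replicate 2 they had 1.19, 0.80 and 0.91, no longer past the test (adjusted p of 0.128, 0.637 and 0.251). Eif2ak2, the kinase PKR, and Parp10 rose after 72 h of NNK, by 0.77 ± 0.23 and 0.62 ± 0.17, and these calls were lost when any of 5 and of 4 single arrays was left out. The median log2 changes of this list were 0.21 (aflatoxin B1, 24 h), 0.06 (72 h), −0.01 (NNK, 24 h) and 0.10 (72 h). Of 22 genes of antigen presentation, 1 rose after 72 h of aflatoxin B1 (Psme2, 0.61 ± 0.18, with an adjusted p of 0.000861 without D number 3 and 0.618 without aflatoxin replicate 2) and 1 after 72 h of NNK (Tap1, 0.76 ± 0.22). The Tap1 call was lost when any of 5 single arrays was left out (limma adjusted p up to 0.266).

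Macrophage markers moved with some of these results. After aflatoxin B1, 12 of the 14 measured markers were higher at 24 h and 13 at 72 h, with median log2 changes of 0.64 and 1.07, and limma called 0 of them at each time, or 2 at 72 h without D number 3. The summed intensity of all 16 on the array was 1582 to 2860 after aflatoxin B1 at 24 h, against 872 to 1678 in its controls, and 1850 to 2539 at 72 h, against 855 to 1443. After NNK, 3 of 14 were higher at 24 h (median −0.14) and 9 at 72 h (median 0.14), with sums of 1129 to 2444 at 72 h, against 1048 to 2415 in its controls, and 0 were called.

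With Wy-14643 and with nifedipine at 72 h, 4 of the 14 macrophage markers fell in each, with medians of −1.52 and −1.49 and sums of 508 to 824, against 855 to 1443, and of 567 to 1228, against 1031 to 2200. When D number 3 was left out, Wy-14643 had 6 such calls, among them 3 of these 4, with Ptprc at an adjusted p of 0.136 in place of 0.0438. In the same comparisons 7 of the 8 member probe sets were lower after Wy-14643 (median log2 change −0.61, between −2.27 and 0.74) and 5 after nifedipine (median −0.28, between −1.50 and 0.26). In the contrast of aflatoxin B1 and NNK with the other 6 at 72 h, limma called 7 of 14 macrophage markers, all higher in the pair, with a median difference of 1.38 over the 14; without D number 3 it called 11. The macrophage markers Itgam and Adgre1 did not pass the filter and were at the floor on 57 and 12 of 72 arrays. Cd68 (median 82.7), Clec4f (83.1), Csf1r (44.6) and Cd14 (223) passed it and were at the floor on 0 arrays. Cd163 and Aif1 also passed it, with 2 and 4 arrays at the floor. Summed intensities of the 13 lymphocyte markers on the array lay between 81.9 and 98.0 after 24 h of aflatoxin B1. Its controls lay between 60.6 and 67.9, with no overlap. In the methapyrilene controls at 24 h, which had no compound, the sums lay between 83.7 and 97.6. At 72 h they lay between 57.6 and 73.9 after aflatoxin B1 and between 52.1 and 68.0 in its controls. Of the T cell markers, Cd3d was at the floor on 70 arrays, Cd2 on 52, Cd8a on 35, Cd3g on 17 and Cd3e on 15. None of these passed the filter. The part of macrophages or lymphocytes in the values of the members was not tested.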

How the data were processed

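RNA from each culture was put on its own Affymetrix rat array, 72 in all; per the labels' protocols the experiments were independent biological ones, and p-values measure the spread between these arrays. The deposited table gives 1 intensity on a linear scale for each of 31099 probe sets (57 are controls), made by the authors with MAS5, per the submitters' processing notes; the sources do not state its version. Unused columns numbered 0. With 3 arrays in a group, their number limits the precision.

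Values were raised to the 20th percentile of the table (3.12), which understates changes of dim genes, and put on the log2 scale. Probe sets entered the tests if any group's mean came to the table's median (19.7) or more. In R 4.3.3, limma 3.58.1 was fitted to the 24 groups (48 residual degrees of freedom) with eBayes and an intensity trend, and p-values were adjusted over all 18048 kept probe sets within each comparison. The fit was tested on simulated data. Gene symbols came from the platform annotation, in which 20826 probe sets have 1 symbol and 436 several, and probe sets with several were not named.

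The members and the gene lists were chosen with earlier results of these data known, so no count over them is independent evidence. Beside the members, the rule named up to 4 called pathway genes per comparison with the largest changes, and the 5 genes most like Gbp4 and Isg15. Outside this rule, Jak1, Irf1, Isg20, Cmpk2, Psme2, Parp10, RT1-Bb, Cd74, Plscr1 and the uncalled Cxcl9 were named after their values were seen. Arrays of equal number deviated together (every correlation over 0.1) in 14 of the 16 comparisons. The exceptions were both of aflatoxin B1, where replicate 1 at 24 h and replicate 2 at 72 h had correlations of −0.26 and −0.29 with the control of equal number. The numbers pair the samples by this check and not by a stated design. Alternatives tried were other floors, filters, normalizations and variance models, the D number as a block, a fit on 2 groups, the actin ratio as a covariate, and arrays left out.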

Additional observations from a re-analysis of the deposited data

How the results depend on the processing

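Counts of called member probe sets (of 8) moved by more than 1.5 times as follows. With the replicate block (D number within time) there were 2 after aflatoxin B1 at 24 h (in place of 1), 1 after NNK at 24 h (0), 1 after nifedipine at 24 h (0), 2 after Wy-14643 at 72 h (1), 2 after nifedipine at 72 h (0) and 2 in the controls over time (1); the pairing was not borne out for aflatoxin B1, where the block gave adjusted p of 0.000947 for Irf7 at 24 h and 0.0302 for Isg15 at 72 h, and no called probe set lost its call under the block. A fit on the 2 groups alone, with 4 residual degrees of freedom, called 0 after aflatoxin B1 at 24 h, 0 at 72 h and 0 after Wy-14643 at 72 h, and 1 after nifedipine at 72 h. Without a filter there was 1 after NNK at 72 h (2). Of the 103 pathway genes, the block called 17 after aflatoxin B1 at 24 h (16.5% beside 10.4% of all probe sets). It called 33 at 72 h (32% beside 14.4%). The calls without D number 3 were 6 (5.83% beside 4%) and 24 (23.3% beside 12.8%). For the contrast of aflatoxin B1 with NNK against the other 6, the main fit called 6 at 24 h (5.83% beside 2.99%). At 72 h it called 18 (17.5% beside 6.45%). The block gave 19 (18.4% beside 8.85%) and 44 (42.7% beside 17.9%). Leaving out D number 3 gave 11 (10.7% beside 4.95%) and 37 (35.9% beside 15.8%). In the controls the block called 26 (25.2% beside 23.7%), in place of 18. Without D number 3 the count there was 28 (27.2% beside 25.7%). Wy-14643 at 72 h had 17 pathway calls without D number 3 (16.5% beside 9.15%). Nifedipine at 72 h then had 6 (5.83% beside 7.42%), below the share of all probe sets. With the block it had 22 (21.4% beside 15.1%), and Wy-14643 at 72 h had 36 (35% beside 21.2%). For 2-nitrofluorene the block gave 11 (10.7% beside 7.24%) at 24 h and 9 (8.74% beside 5.07%) at 72 h. For NNK it gave 3 (2.91% beside 4.27%) and 16 (15.5% beside 13%). Wy-14643 and nifedipine at 24 h had 4 each (3.88% beside 3.98% and 3.88% beside 4.54%). Among member probe sets, without D number 3 there were 1 after nifedipine at 72 h and 5 in the controls; without the arrays of high actin ratio 0 after aflatoxin B1 at 72 h (2), 1 after nifedipine at 72 h and 5 in the controls. With single arrays left out, counts were 1 to 2 after aflatoxin B1 at 24 h and at 72 h, 1 to 2 after NNK at 72 h, 0 to 2 after Wy-14643 at 72 h and 1 to 3 in the controls. No called change reversed its sign under any alternative run. The differences of Gbp2 and Irf7 between aflatoxin B1 with NNK and the other 6 kept their calls under every alternative run, with adjusted p of 0.0109 at most at 24 h and 0.000767 at 72 h, and that of Isg15 at 72 h with 0.0445 at most. The cause of these shifts was not tested. Leaving out single arrays was added for the pathway counts after the data were seen.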

Other observations

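Of the 103 pathway genes 18 were called in the controls at 72 h minus 24 h, 13 of them lower. This was a share of 17.5% beside 15.9% of all probe sets, or 27.2% beside 25.7% without D number 3. In the list of 11 interferon gamma induced GTPases and chemokines 1 was called, Cxcl9. It fell by 1.75 ± 0.31 on the log2 scale (limma adjusted p = 8.17e-05), and the MHC class II genes RT1-Ba, RT1-Da and RT1-Bb by 2.07 ± 0.54, 1.83 ± 0.52 and 1.45 ± 0.41, and their invariant chain Cd74 had a log2 change of −1.54 ± 0.50 (0.0275). Without D number 3 the changes were −2.16 for Cxcl9, −2.80 for RT1-Ba, −2.47 for RT1-Da, −1.83 for RT1-Bb and −2.08 for Cd74. Their limma adjusted p was then 1.39e-06 at most. Endothelial markers fell too, 5 of 6 measured, with a median of −1.51, beside 1 of 14 macrophage markers (3 of 14 without D number 3). RT1-Bb, Cd74 and Plscr1 were named after their values were seen. In the same arrays Ifnlr1, a receptor chain for interferon lambda, rose by 1.61 ± 0.32 and Plscr1 by 1.14 ± 0.28. Leaving out D number 3 gave 1.87 and 1.33.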
